A study of Homo sapiens with 4 samples.

Results

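The transcripts of 10 genes of the circadian clock were examined in A549 cells treated with embelin: the repressors BHLHE40 and BHLHE41, the period genes PER1, PER2 and PER3, the cryptochrome genes CRY1 and CRY2, the nuclear receptor gene NR1D1, and the activators ARNTL (current symbol BMAL1) and CLOCK. Their probes were found by gene name, older alias or RefSeq accession. This gave 19 of the 50238 different probes on the array. Of these, 13 were kept by the filter on dim probes, which kept 26146 in all, and every one of the 10 genes was tested among 17649 genes or transcripts. A549 is a human lung adenocarcinoma line and carries no engineered allele here. Embelin is a natural benzoquinone. Both groups were held in medium with 2% serum from 12 h before the treatment, and RNA was taken after 4 h from 2 untreated control samples and from 2 samples given 15 µM embelin. Each sample was hybridized to 1 single-colour Agilent array. The sources used here do not say whether the controls received the vehicle, at what hour of the day the cells were collected, or whether the 2 samples of a group came from separate cultures, so the p-values measure the spread between these samples, which may be technical.

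In the mammalian clock CLOCK and ARNTL form a dimer that binds E-boxes, DNA sites spelled CACGTG in their canonical form, and drives the period and cryptochrome genes and NR1D1. PER and CRY proteins then inhibit the dimer. NR1D1 (REV-ERBα) represses ARNTL, and BHLHE40 (DEC1) and BHLHE41 (DEC2) are basic helix-loop-helix repressors that bind E-boxes themselves. BHLHE40 and PER1 are also known as genes that respond within hours to signals from outside the cell, BHLHE40 to low oxygen among others.

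The slide and the scan were the same for the 4 arrays. The control arrays lay at positions 4 and 1 and the embelin arrays at 2 and 3, and 1 array of each group (control replicate 2 and embelin replicate 1) had a noisier background, with 50.3% and 51.2% of probes well above background against 66.7% and 66.4% on the others. The 5 epithelial markers KRT7, KRT8, KRT18, CDH1 and EPCAM were well above background on all 4 arrays. The leukocyte, endothelial and muscle markers PTPRC, PECAM1 and DES were not kept by the filter. Of 3 alveolar type II markers, SFTPB was not kept, SFTPC was at a mean normalized log2 signal of 6.10 in the controls and 6.23 with embelin (adjusted p = 0.829 from limma), and NKX2-1 at 5.50 and 6.07 (adjusted p = 0.246). The fibroblast marker COL1A1 was kept. At its brightest probe the mean normalized log2 signal was 6.33 in the controls and 7.63 with embelin (adjusted p = 0.0547 from limma). Its dimmer kept probes had larger rises, with log2 fold changes of 1.84 and 1.78. For these limma gave 0.0485 and 0.0529 after adjustment over probes. On each of them only 1 control array was well above background. The part of these marker genes in the values that follow was not tested. Fewer cells and less RNA per cell cannot be told apart in such bulk samples.

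Of the 10 clock genes, limma called BHLHE40 higher with embelin after adjustment over all genes tested, and called 0 lower. The share called among all genes tested was 1.81%, made up of 1.25% higher and 0.561% lower. BHLHE40 rose 3.98-fold. At 2-fold or more with an unadjusted p under 0.05, a threshold that 8.26% of all genes passed (4.27% higher and 3.99% lower), BHLHE40 and BHLHE41 were higher and 0 clock genes lower. BHLHE41 passed the filter on dim probes only through the embelin group. Its place in this count and those below thus depended on its being higher there. By the unadjusted p alone 4 were higher (BHLHE40, BHLHE41, NR1D1 and PER1) and 1 lower (ARNTL), a threshold passed by 19.5% of all genes (8.36% higher and 11.1% lower). The median log2 fold change of the 10, with PER3 at its fitted value although too dim to place, was 0.33, beside -0.06 over all genes tested. In 6 of the 9 with a value on every array, the embelin arrays did not overlap with the controls (5 higher, 1 lower), which was also so in 51.8% of all genes with such values (21.1% higher, 30.7% lower). The count after adjustment therefore rests on 1 gene.

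**Figure D1:**
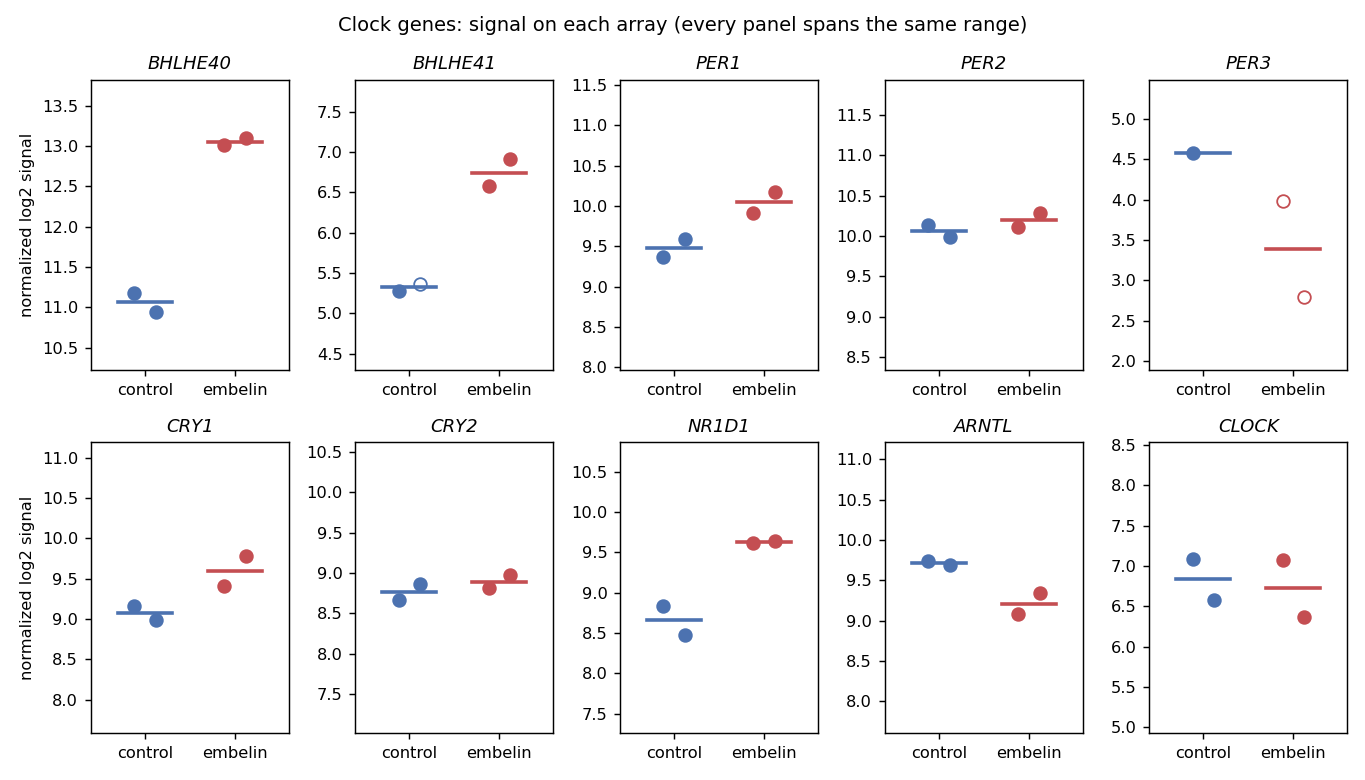
Normalized log2 signal of the 10 clock genes on each array, at the probe that stands for the gene. Blue points are control and red points embelin arrays, lines are group means, open points were not well above background, and each panel spans the same number of log2 units. The groups lie farthest apart for BHLHE40 (11.06 to 13.05), while those of CLOCK overlap. For PER3 the value of control replicate 2 was left out as an outlier.

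The normalized log2 signal of BHLHE40 was 11.18 and 10.94 in the controls, and 13.01 and 13.10 with embelin. Both embelin arrays were thus well above both controls, and all 4 were well above background. The means were 11.06 ± 0.17 and 13.05 ± 0.06 (SD, n = 2 each). This is a log2 fold change of 1.99 (SE, the standard error, 0.18, 95% interval 1.50 to 2.48), with an adjusted p of 0.0357 from limma. Within the pair of arrays with the lower background the difference was 1.92, and within the pair with the higher background 2.06. A higher log2 fold change was measured in 347 genes, 1.97% of those tested. BHLHE40 has 1 probe on the array, so no further probe measured this change. The adjusted call did not hold when any 1 array was left out. The log2 fold change was then 2.11 without control replicate 1 (adjusted p = 0.0680 from limma), 1.87 without control replicate 2 (0.165), 2.04 without embelin replicate 1 (0.213) and 1.95 without embelin replicate 2 (0.108), and limma called 0 of all genes in each of these fits, where 672 to 1147 were 2-fold higher and 583 to 1120 2-fold lower at an unadjusted p under 0.05. With the position on the slide as a covariate the adjusted p from limma was 0.0990, and with the array background as a block 0.179, at the same fold change.

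BHLHE41, the closest relative of BHLHE40, was at 5.28 and 5.37 in the controls and at 6.58 and 6.91 with embelin in normalized log2 signal. The groups did not overlap, although 1 of the 2 control arrays was not well above background. Its change of 1.42 on the log2 scale, or 2.67-fold, had a SE of 0.20 and a 95% interval of 0.88 to 1.95, which overlaps that of BHLHE40. It missed the adjusted threshold (adjusted p = 0.0599 from limma). This value depended on the treatment of the background: with normexp correction of the unprocessed spot means the log2 fold change was 0.76. It too has 1 probe.

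**Figure D2:**
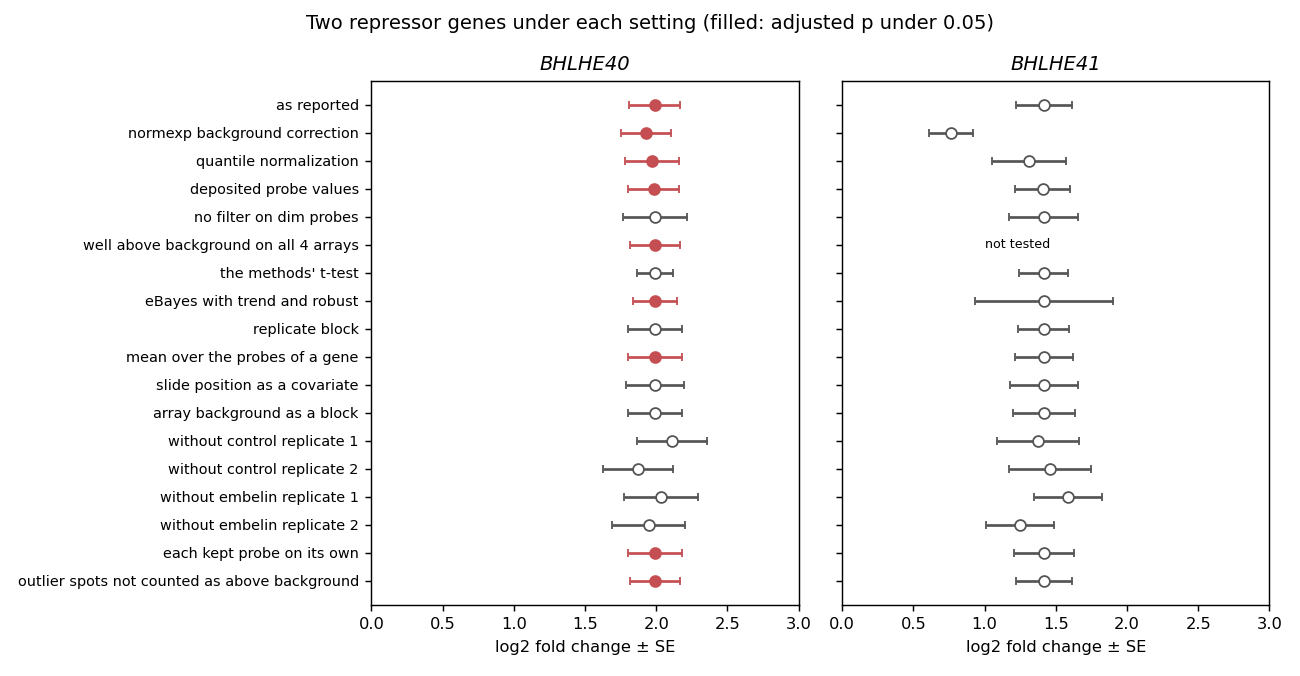
Log2 fold change (± SE, horizontal axis) of BHLHE40 and BHLHE41 under the reported setting and 17 alternatives (rows), with filled red points where the adjusted p was under 0.05. BHLHE40 stayed between 1.87 and 2.11 and was called in 8 of the 17 alternatives, and BHLHE41 lay between 0.76 and 1.58 and was called in 0 of the 16 in which it could be tested.

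The probe of BHLHE40 begins with aacagaactagactcagttttcaattccat and that of BHLHE41 with acaacagtctgactatgagtgaggaaaata, the first 30 bases of each as written in the scanner files. They are shown because each of these genes was read from this probe alone. The files gave no genome position for either.

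The 250 bases before the start of each clock gene were read from RefSeq promoter windows (GRCh38.p14, 14 windows for the 10 genes) and searched on both strands. The E-box CACGTG was in the windows of BHLHE40, BHLHE41 and PER1, 3 of the 14, and in 6.34% of the 35116 windows of all genes. Its shorter core ACGTG, which CACGTG contains on both strands and which the hypoxia response element shares, was in 8 of the 14 and in 18.5% of all. TGACG, the half-site of the cAMP response element, was in 4 of the 14 and 21.2% of all, and AGGTCA, a half-site of nuclear receptors, in 3 of the 14 and 12.1% of all. The 3 windows with the canonical E-box are printed because they include both repressor genes, with ACGTG on either strand in capitals, so that a run of 6 capitals is CACGTG. They lie at chr3:4979187-4979436 on the plus strand (BHLHE40), chr12:26125038-26125287 on the minus strand (BHLHE41) and chr17:8152405-8152654 on the minus strand (PER1), each written 5′ to 3′ and ending next to the start of the gene:
BHLHE40: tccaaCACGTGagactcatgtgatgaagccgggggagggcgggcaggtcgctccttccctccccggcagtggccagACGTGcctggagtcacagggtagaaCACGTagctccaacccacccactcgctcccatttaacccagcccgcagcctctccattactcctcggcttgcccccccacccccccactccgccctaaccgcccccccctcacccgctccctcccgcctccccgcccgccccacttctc
BHLHE41: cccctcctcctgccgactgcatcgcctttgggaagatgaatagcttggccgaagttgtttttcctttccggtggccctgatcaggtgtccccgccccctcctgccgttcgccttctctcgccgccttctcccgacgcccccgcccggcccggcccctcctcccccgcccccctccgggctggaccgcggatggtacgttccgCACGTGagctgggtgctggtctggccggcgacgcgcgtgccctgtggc
PER1: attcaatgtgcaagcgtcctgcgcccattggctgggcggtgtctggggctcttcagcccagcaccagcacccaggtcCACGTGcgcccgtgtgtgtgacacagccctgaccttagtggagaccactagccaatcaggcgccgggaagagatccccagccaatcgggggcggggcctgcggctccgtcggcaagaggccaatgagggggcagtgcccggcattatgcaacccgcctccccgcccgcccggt
The E-box begins 245 bases before the start in BHLHE40, 48 in BHLHE41 and 173 in PER1. BHLHE40 holds ACGTG at 2 further places, one of them read on the opposite strand. These are matches of letters, and no binding was measured on these arrays.

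Among the period genes, whose products inhibit CLOCK and ARNTL, PER1 was at a normalized log2 signal of 9.36 and 9.59 in the controls and 9.92 and 10.17 with embelin. The groups did not overlap and the 1.48-fold difference (log2 fold change 0.57, SE 0.20, 95% interval 0.03 to 1.10) was not called (adjusted p = 0.235 from limma). Within the lower background pair it was 0.81 and within the other 0.33. A dimmer probe of PER1, left out because 1 array of each group was not well above background, was also higher on both embelin arrays (5.94 and 5.50, against 4.27 and 3.60).

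PER2 was at 10.14 and 9.99 in the controls and 10.11 and 10.29 with embelin in normalized log2 signal, so that the groups overlapped. Its log2 fold change was 0.14 with a 95% interval of -0.35 to 0.62, which leaves out a 2-fold change in either direction. The dim second probe of PER2, which the filter left out, was at 5.70 and 4.93 in the controls and 5.60 and 5.81 with embelin.

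PER3 was too dim to place. At its 1 kept probe control replicate 1 was at a normalized log2 signal of 4.58. Control replicate 2 was left out before the fit as an outlier, and the embelin arrays (3.99 and 2.80) were not well above background. The fitted log2 fold change of -1.19 (SE 0.62, adjusted p = 0.415 from limma) thus rests on 1 control array, and no fold is given. The other 2 probes of PER3 ranged from 3.64 to 4.96 and were not kept.

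CRY1, the stronger repressor of the cryptochrome pair, was at 9.16 and 8.99 in the controls and 9.41 and 9.78 with embelin in normalized log2 signal. The groups did not overlap. This is a log2 fold change of 0.52 (SE 0.21, 95% interval -0.05 to 1.10, adjusted p = 0.291 from limma), and 0.51 (SE 0.35) at its other kept probe. That probe was at 7.54 and 6.66 in the controls and 7.56 and 7.66 with embelin, so its groups lay apart by little.

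CRY2 was at 8.66 and 8.87 in the controls and 8.81 and 8.97 with embelin in normalized log2 signal, with overlapping groups. The log2 fold change of 0.13 (95% interval -0.37 to 0.62) likewise leaves out a 2-fold change. The remaining 2 probes of CRY2 were not kept and ranged from 3.59 to 5.35.

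NR1D1, the receptor that represses ARNTL, was at 8.83 and 8.48 in the controls and 9.62 and 9.65 with embelin in normalized log2 signal. Both embelin arrays lay above both controls, by 0.81 within the lower background pair and by 1.14 within the other. The difference was 1.97-fold (log2 fold change 0.98, SE 0.20, 95% interval 0.43 to 1.52) and missed the adjusted threshold (adjusted p = 0.107 from limma). Its dimmer kept probe was at 6.63 and 6.38 in the controls and 6.77 and 7.04 with embelin, a log2 fold change of 0.40 (SE 0.21). The probes thus shared a direction and differed in size. The probe with the larger change begins with cccttgtacagaatcgaactctgcacttct and the other with aacacatcccgggcttccgtgacctttctc.

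ARNTL, the activator that NR1D1 represses, was lower on both embelin arrays. It was at 9.73 and 9.69 in the controls and at 9.09 and 9.34 with embelin in normalized log2 signal, at its 1 probe. The log2 fold change was -0.50 (SE 0.18, 95% interval -0.99 to -0.01) and was not called (adjusted p = 0.251 from limma). ARNTL and NR1D1 thus lay on opposite sides of their controls, and neither passed the adjusted threshold.

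CLOCK, the partner of ARNTL, was at 7.09 and 6.58 in the controls and 7.07 and 6.37 with embelin in normalized log2 signal, so the spread within each group was larger than the difference of the means. The log2 fold change was -0.11 (95% interval -1.04 to 0.81, adjusted p = 0.899 from limma). It changed sign with 1 array left out, to 0.14 without control replicate 1 and 0.24 without embelin replicate 2. Within the lower background pair it was -0.72 and within the other 0.49. Another kept probe was at 6.62 and 6.76 in the controls and 5.23 and 6.45 with embelin, a log2 fold change of -0.85 (SE 0.45), and 1 of its 2 embelin arrays was not well above background. The first of these probes begins with tggtcctttgaaaacaaaacaaaacttcca and the other with ataccacacttaaaagatggtgaactgtga.

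Apart from PER3, the clock genes were thus, in descending order of log2 fold change, BHLHE40 (1.99), BHLHE41 (1.42), NR1D1 (0.98), PER1 (0.57), CRY1 (0.52), PER2 (0.14), CRY2 (0.13), CLOCK (-0.11) and ARNTL (-0.50). PER3 is not placed, because its fitted -1.19 rests on 1 control array and on embelin arrays not well above background. Under the alternative settings the value of PER3 ranged from -3.66 to -0.15. The 95% intervals of every pair of neighbours in this order overlap. Differences between genes were not tested.

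Other genes of the clock were examined as a list of 22, of which 17 were tested. Limma called 2 higher after adjustment (NFIL3 and NOCT) and 0 lower, where 1.25% of all genes were called higher. At 2-fold or more with an unadjusted p under 0.05, 3 were higher (with RORA) and 2 lower (DBP and BTRC), beside 4.27% higher and 3.99% lower among all genes. RORA passed the filter on dim probes only through the embelin group, where it was higher. DBP, at its brighter kept probe, passed that filter only through the control group, where it was higher. DBP and BTRC are counted here at their brighter kept probe, and the other kept probe of each was not lower (0.02 and 0.22). By the unadjusted p alone 6 were higher and 4 lower, beside 8.36% and 11.1% of all genes. The 4 include TEF, which also passed the filter only through the control group. The median log2 fold change of the 17 was 0.19. CIART, RORB, USP2 and HLF were among those not kept by the filter.

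The genes called belong to the outputs of the clock, of which 5 of 6 were tested. NFIL3, a repressor that competes with DBP for the same promoter sites, was at a normalized log2 signal of 11.40 and 11.47 in the controls and 13.50 and 13.45 with embelin. It was 4.11-fold higher (log2 fold change 2.04, SE 0.16, adjusted p = 0.0267 from limma). NOCT (nocturnin, listed under its older name CCRN4L), a rhythmically expressed phosphatase, was at 6.12 and 6.07 in the controls and 8.02 and 8.19 with embelin, 4.02-fold higher (log2 fold change 2.01, SE 0.17, adjusted p = 0.0304 from limma). Its other kept probe was dim in both controls, so it passed the filter on dim probes only through the embelin group. There it was at 7.10 and 4.56 (SE of the log2 fold change 1.05), and limma gave 0.287 after adjustment over probes. The 4.56 lies below 5.85, the lowest signal well above background on control replicate 2. The bound of at least 1.98-fold higher at this probe thus depended on its being higher with embelin, and adds little to the first probe. With any 1 array left out neither gene was called.

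DBP, an activator of output genes that CLOCK and ARNTL drive, was lower at its brighter probe, at 8.42 and 8.43 in the controls and 5.66 and 6.37 with embelin in normalized log2 signal. There the log2 fold change was -2.41 (SE 0.29, adjusted p = 0.0515 from limma), and 1 of its 2 embelin arrays was not well above background. At the other kept probe of DBP, which was well above background on all 4 arrays, it was 0.02 (7.11 and 7.18 against 7.07 and 7.27). The probes of DBP thus disagree, and no direction is given for the gene. The remaining outputs, TEF and WEE1, had log2 fold changes of -0.78 (adjusted p = 0.126 from limma) and 0.65 (adjusted p = 0.357).

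Among partners and receptors, 5 of 8 were tested and limma called 0, where 1.81% of all genes were called. Their median log2 fold change was 0.20. By the unadjusted p 2 were higher and 0 lower, beside 8.36% and 11.1% of all genes. RORA, a receptor that activates ARNTL from the sites NR1D1 uses, was not above background on either control array and at a normalized log2 signal of 7.03 and 5.996 with embelin, at least 3.19-fold higher (limma gave an adjusted p of 0.112). NR1D2, the close relative of NR1D1, had a log2 fold change of 0.88 at one kept probe (adjusted p = 0.214 from limma) and 0.66 at the other. The activator relatives NPAS2 and ARNTL2 were at 0.07 and 0.20.

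Of 8 kinase, ubiquitin ligase and deubiquitinase genes that control PER and CRY proteins, 7 were tested. Limma called 0, where 1.81% of all genes were called, and the median log2 fold change was -0.29. By the unadjusted p 2 were higher and 2 lower, beside 8.36% and 11.1% of all genes. BTRC, which encodes a ligase subunit that targets PER proteins, was at a normalized log2 signal of 8.94 and 8.90 in the controls and 7.67 and 8.15 with embelin. Its log2 fold change was -1.01 (SE 0.23, adjusted p = 0.125 from limma) there and 0.22 at its other kept probe, so that it too depended on the probe. CSNK1D likewise had -0.33 at its brighter kept probe and 0.57 at the other. The kinase gene CSNK1E had a log2 fold change of 0.77 (adjusted p = 0.110 from limma).

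BHLHE40 and BHLHE41 share their Orange domain with the HES and HEY repressors, many of them targets of Notch signalling. Of 11 such genes 6 were tested and limma called 0, where 1.81% of all genes were called. By the unadjusted p 2 were higher and 0 lower, beside 8.36% and 11.1% of all genes. Their median log2 fold change was -0.06, the same as over all genes. HEY1 and HES4 stood apart from the other 4, whose log2 fold changes ranged from -0.52 (HES1) to -0.02 (HES6). Another kept probe of HES1, well above background on all 4 arrays, had a larger fall, with a log2 fold change of -0.85 (SE 0.19). For that probe limma gave an unadjusted p of 0.0103, and 0.141 after adjustment over probes. HES4 was at a normalized log2 signal of 10.53 and 10.69 in the controls and 11.97 and 12.07 with embelin (log2 fold change 1.41, SE 0.17, adjusted p = 0.0505 from limma). HEY1 was at 5.39 and 5.01 in the controls and 6.98 and 7.30 with embelin. Its log2 fold change was 1.94 (SE 0.23, adjusted p = 0.0501 from limma). Only 1 of its 2 control arrays was well above background, so HEY1 passed the filter on dim probes through the embelin group alone. HES4 and HEY1 both lay just outside the adjusted threshold.

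The genes whose signal followed that of BHLHE40 most closely were found among 11519 genes well above background on all 4 arrays, by the root mean square difference of log2 signals after each gene was centred on its own mean. They were CCNG2 (0.0359), which encodes cyclin G2, PFKFB3 (0.0437), an enzyme that promotes glycolysis, and TMEM45A (0.0568), a membrane protein. Their log2 fold changes were 1.98, 1.96 and 1.94, each called by limma (adjusted p = 0.0406, 0.0336 and 0.0453). The likeness is over 4 arrays of 2 groups, so it selects genes with a change of like size.

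**Figure D3:**
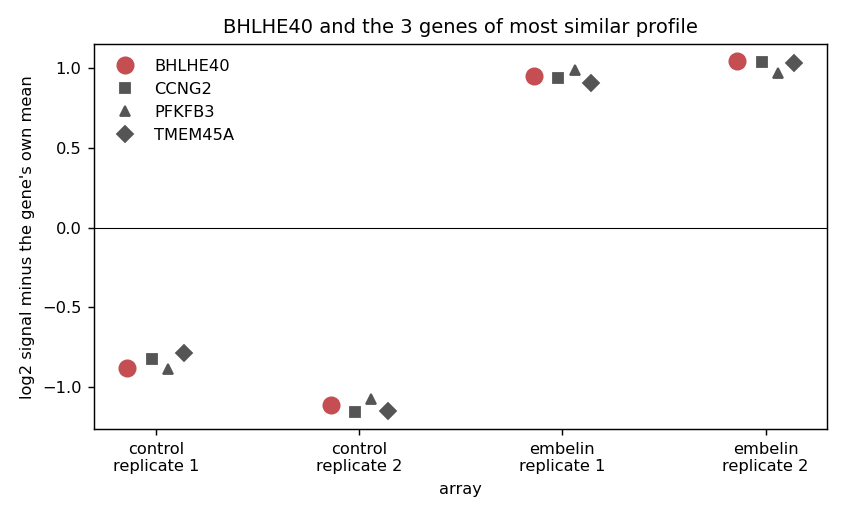
Log2 signal minus the gene's own mean (vertical axis) on the 4 arrays for BHLHE40 and the 3 genes closest to it. All 4 genes lie below 0 on the control arrays and above 0 on the embelin arrays, with control replicate 2 the lowest.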

How the data were processed

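RNA of 2 untreated and 2 embelin treated A549 samples was measured on 1 Agilent slide. The authors deposited the background-subtracted, detrended intensities of Agilent Feature Extraction (10.7.3.1, per the file headers), not normalized between arrays, and a table of the same intensities averaged per probe. The methods name a 75th percentile shift, a 2-fold threshold and a t-test. No aligner or genome build enters these values.

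Intensities were scaled to a common 75th percentile, raised to at least 1 and log2 transformed. Outlier spots, as marked in the scanner files, were dropped and the rest of a probe averaged. A probe was kept if either group had it well above background on both of its arrays, a probe counting as such on an array where no more of its spots failed that test than passed it. The kept probe with the highest mean signal stood for the gene. Groups were compared in R 4.3.3 with lmFit and eBayes of limma 3.58.1, with Benjamini-Hochberg adjustment over 17649 genes. The median pooled SD was 0.21 in log2, the number of arrays limits the precision, and an exact permutation test of 2 arrays against 2 has 0.333 as its smallest p. For a gene dim on both arrays of a group only a bound is given, from the bright mean against the dim mean, each dim array raised to the lowest signal that was well above background on it. Of 50238 probes, 28595 were named by accession, 2341 through another probe and 19302 as in the files.

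The members, lists and tests were chosen with earlier results of these data known. Named were all members, every related gene called or at least 2-fold changed with groups apart, and the 3 genes most like each called member. Some further related genes were named for their role, and counts and medians include a few list members that go unnamed. Alternatives were normexp correction (offset 50), quantile normalization, the deposited probe values, no filter, the methods' t-test, a filter on all 4 arrays, a block for the replicate number, limma's trend and robust options, the mean over probes, each probe on its own, position, array background as a block, and leaving out each array. One that does not count outlier spots as above background was added after seeing the data. The fit was tested on simulated data.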

Additional observations from a re-analysis of the deposited data

How the results depend on the processing

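BHLHE40 kept its direction under all 17 alternatives (log2 fold change 1.87 to 2.11, adjusted p 0.00204 to 0.383). It was called in 8 and lost the call in 9. At its reported log2 fold change of 1.99 the adjusted p was 0.383 with no filter on dim probes, 0.183 with the methods' t-test, 0.0829 with the replicate number as a block, 0.0990 with slide position as a covariate and 0.179 with array background as a block, and with 1 array left out the log2 fold change was 1.87 to 2.11 (adjusted p 0.0680 to 0.213). In those 9 settings the test called 0 of all genes, so the loss was shared by every call. The cause was not tested beyond this. The number of clock genes called higher was then 0 in each, and 0 to 0 with 1 array left out.

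The replicate numbers were not shown to pair the samples. Deviations of same-numbered samples had a correlation of 0.175 over 17298 genes, across genes, from 2 pairs. With the replicate block the clock genes called higher went from 1 to 0, the other clock genes from 2 to 0 and all genes from 221 higher and 99 lower to 0.

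At 2-fold with an unadjusted p under 0.05, the clock genes higher fell from 2 to 1 with normexp correction. They also fell to 1 with the filter on all 4 arrays, under which BHLHE41 is not tested. Without embelin replicate 1 the log2 fold change of PER3 was -1.78. That value rests on 1 control array and 1 embelin array not well above background. CLOCK turned from -0.11 to 0.14 without control replicate 1 and to 0.24 without embelin replicate 2, a range of -0.46 to 0.24. The other clock genes called higher went from 2 to 0 with no filter, the methods' t-test, slide position, array background or 1 array left out (0 to 0), and to 1 with the mean over probes. Those called lower went from 0 to 1 with normexp correction and to 1 with trend and robust. Those lower at 2-fold went from 2 to 1 with normexp correction, the filter on all 4 arrays, the t-test and the mean over probes. That count also fell when control replicate 1 or embelin replicate 1 was left out. In the reported setting the 2 lower at 2-fold are DBP and BTRC, whose other kept probes were not lower. Of the HES and HEY genes, 2 were called higher with normexp correction, 1 with the filter on all 4 arrays, 1 with trend and robust, and 2 where outlier spots did not count as above background, a setting added after seeing the data, and the 2 at 2-fold became 1 with the filter on all 4 arrays. All-gene calls ranged from 0 to 566 higher (trend and robust). They went from 221 higher and 99 lower to 422 and 277 with normexp correction. With the filter on all 4 arrays they were 419 and 345 of 15542, and with trend and robust 566 and 499. Where outlier spots did not count they were 233 and 109. The added calls in these lists thus came with more calls over all genes. PER3 could be tested in 10 of the alternatives. The other clock genes among the 10 kept their direction wherever tested and were called in 0. A gene's dim arrays limit PER3, BHLHE41, DBP and HEY1.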
